A study of Mus musculus with 33 samples.

Results

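Csn3, Arg1 and Prrt3 were 3 of the 17120 genes in the deposited count table. They were chosen because their levels after 0.25 days (D0.25) were higher in mouse cultures given CD1530, an agonist of retinoic acid receptor gamma, than in cultures given AGN 193109 (AGN), which acts on these receptors as an inverse agonist. They were thus selected on the D0.25 contrast between ligands, so their D0.25 values only describe the choice, and the tests given for them start at D0.75. All 3 genes were higher with the agonist at D0.75, D1.5, D2.5 and D4, but their courses differed. Csn3 started from 0 counts, peaked at D2.5 in CD1530 and was down to 1 count in AGN at D4. Arg1 was highest at D0.25 and rose again late in CD1530 while it fell in AGN. Prrt3 climbed to D2.5 in CD1530 and then fell back to a level near its starting one.

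RNA had been sequenced from 33 cultures in 11 groups of 3 biological replicates. The start was paraxial mesoderm (PM), made from mouse embryonic stem cells that carried the ScxGFP tendon reporter and collected as embryoid bodies on the day called D0. The other 10 groups were monolayers given CD1530 or AGN, collected after 0.25, 0.75, 1.5, 2.5 and 4 days of induction and named by that day. All induced cultures also received TGFβ1, the hedgehog agonist SAG and FGF2. The PM had been made with the BMP inhibitor LDN-193189 and the Wnt agonist CHIR, and the methods for the ligand experiments also describe a retinoid ligand in that phase, so PM may not be free of one. CD1530 and AGN were given at unequal concentrations. No ligand-free induced culture was analysed here, so a level raised by the agonist and a level lowered by the inverse agonist cannot be told apart. The study derived several ScxGFP lines, and the line behind each library is not given in the sources used here.

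Retinoic acid receptors sit on DNA as partners of retinoid X receptors, at direct repeats of a short hexamer. An agonist lets them recruit coactivators, and an inverse agonist strengthens their hold on corepressors. In the embryo retinoic acid patterns the paraxial mesoderm as it forms somites, and retinoid signaling restrains cartilage formation. Csn3 encodes kappa-casein, the milk protein that keeps casein micelles in suspension. Arg1 encodes arginase 1, the last enzyme of the urea cycle in liver, which splits arginine into ornithine and urea and is also a marker of alternatively activated macrophages. Prrt3 encodes proline-rich transmembrane protein 3, a little-studied membrane protein.

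In the mouse genome (GRCm38, GENCODE M21) Csn3 (ENSMUSG00000001622) lies at chr5:87925579-87932665 on the plus strand, and Arg1 (ENSMUSG00000019987) at chr10:24915221-24927484 on the minus strand. Prrt3 (ENSMUSG00000045009) lies at chr6:113493639-113501931 on the minus strand. All 3 are protein-coding, with 4152, 2228 and 4588 bases of merged exons in the order named. Csn3 overlaps the antisense gene 1700066N21Rik, with 0 shared exon bases. The strand setting of the counts is not given in the sources used here, so reads of that pair outside the annotated exons cannot be told apart.

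The stretch chr6:113502083-113502181 of GRCm38.p6 is shown because it is the part of a searched Prrt3 window that lies upstream of the whole RefSeq gene. That window runs from 113501882 to 113502181, so the 99 bases shown are its far upstream end, and the other Prrt3 window does not reach them. Below it stand the direct repeats found in the promoters of Rarb, which encodes retinoic acid receptor beta, at chr14:16575513-16575529, and Cyp26a1, which encodes a retinoic acid-degrading enzyme, at chr19:37697776-37697792. All are read 5′ to 3′ on the minus strand, which is the strand of the Prrt3 and Rarb genes and is antisense to Cyp26a1. Capitals mark the hexamers.
Prrt3 upstream: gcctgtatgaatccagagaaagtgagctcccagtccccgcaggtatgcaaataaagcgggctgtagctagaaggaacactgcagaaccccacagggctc
Rarb repeat: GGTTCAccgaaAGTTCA
Cyp26a1 repeat: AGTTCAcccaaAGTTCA

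The consensus hexamer AGGTCA, its relative GGGTCA, the looser form AGTTCA and its own relative GGTTCA were searched on both strands of RefSeq windows from 250 bases before to 50 bases after a transcript start. Prrt3 had 2 windows, which overlap each other, and 0 of them held a hexamer. For comparison, 43.7% of 32851 windows of all genes held at least 1, and 0.0974% held a direct repeat with a 5-base spacer, the kind found in Rarb and Cyp26a1. Of the 11 retinoid response genes listed below, 8 had windows, of which 4 held a hexamer and 2, Rarb and Cyp26a1, a direct repeat. Cyp26b1, Cyp26c1, Dhrs3 and Hoxb1 had none of either, as Prrt3 did. The absence says only that these letters are not in these windows. Windows for Csn3 and Arg1 were not analysed here.

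The library D0.75 CD1530 replicate 1 stood apart from its replicates. Between 2 libraries of a group the chi-square of the counts per gene was 20.6 and 21.9 for its 2 pairs, and 1.59 to 4.87 for the other 31 pairs of the series. Its total count was within the range of the others. Without it the D0.75 differences given below changed from 3.07 to 3.03 for Csn3, from 2.24 to 2.16 for Arg1 and from 2.26 to 2.38 for Prrt3 on the log2 scale, and all 3 kept their calls. The genes called between ligands at D0.75 went from 3076 to 3003.

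Levels are given as CPM, counts normalised to library size after scaling by the trimmed mean of M values (TMM). At D0.25 Csn3 was at 10.7, 8.81 and 7.03 CPM in the CD1530 libraries and at 1.65, 1.76 and 2.31 CPM in the AGN libraries. Arg1 was at 89.7, 92.4 and 85.4 CPM in CD1530 and at 32.7, 29.1 and 29.3 CPM in AGN. Prrt3 was at 5.10, 4.27 and 3.20 CPM in CD1530 and at 1.97, 1.71 and 1.88 CPM in AGN. For each gene the lowest CD1530 library stood above the highest AGN library, as it did for 10.2% of all genes, and this is the difference that chose them. At this time 1.23% of the genes tested were called higher in CD1530, 210 genes in all. By fold change Csn3 ranked 1st among the 210, Arg1 4th and Prrt3 8th, places that restate the choice and support nothing. Between them stood Rarb, Atp2c2, Cyp26b1, Lrtm2 and Krt20, and the next in rank after Prrt3 was 1110002J07Rik. Fold changes on the log2 scale ran from 2.21 for Csn3 through 1.55 for Arg1 and 1.16 for Prrt3 to 1.14 for 1110002J07Rik.

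**Figure D1:**
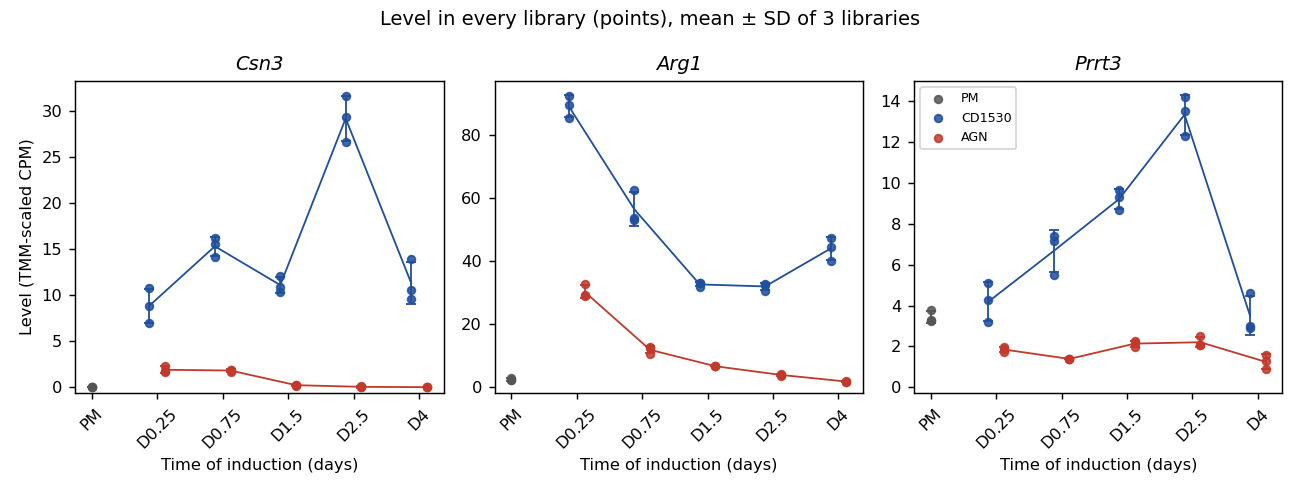
Level of Csn3, Arg1 and Prrt3 in each library (points), in TMM-scaled CPM on linear axes, at PM and 5 times of induction. Lines join group means and bars are ± SD of 3 libraries. From D0.75 to D4 all CD1530 points lie above all AGN points of the same time, and PM has 0 counts of Csn3.

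Csn3 was not detected in PM, with 0 counts in all 3 libraries. A count of 0 allows up to 3 counts over the group. In CD1530 it was at 16.2, 15.5 and 14.2 CPM at D0.75, 10.8, 10.4 and 12.05 CPM at D1.5, 29.3, 26.6 and 31.5 CPM at D2.5, and 10.5, 13.9 and 9.61 CPM at D4. In AGN it was at 1.67, 1.89 and 1.90 CPM at D0.75 and at 0.22, 0.19 and 0.30 CPM at D1.5, the latter from 14 counts. The agonist libraries thus traced a peak at D2.5, while no AGN library of these times was above 1.90 CPM. At D2.5 AGN held 6 counts, all in replicate 1, whose total of 38120841 counts made it the deepest library of the series. At D4 AGN held 1 count.

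At D0.75 Csn3 was higher in CD1530 by 3.07 ± 0.17 on the log2 scale (SE, edgeR quasi-likelihood test, adjusted p = 1.05e-16), a time at which 7.94% of all genes were called higher. At D1.5, when the background of genes called higher was 15.2%, the difference was 5.53 ± 0.27 (adjusted p = 9.35e-19). This SE is derived from the F statistic and is narrower than the counting interval that follows, since AGN held few counts. As a ratio of summed counts, CD1530 was 47.6 times AGN at D1.5, with a 95% counting interval of 28.2 to 87.5. The ratio was 366 at D2.5, with an interval of 168 to 997, and at least 373-fold without D2.5 AGN replicate 1. The calls at D2.5 (edgeR adjusted p = 3.54e-25) and D4 (adjusted p = 1.83e-19) stand beside backgrounds of 20.4% and 22.7% of genes called higher. At D4 the ratio of 559 had a counting interval of 100 to 22132, since a single count sets it, and without D4 AGN replicate 3, which holds that count, it was at least 122.99-fold. These intervals cover counting error only, and copies made by PCR are not independent molecules.

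Along the CD1530 course, Csn3 fell by 0.46 ± 0.13 on the log2 scale from D0.75 to D1.5 (edgeR adjusted p = 0.00418), rose by 1.39 ± 0.12 to D2.5 (adjusted p = 6.97e-12) and fell by 1.36 ± 0.12 to D4 (adjusted p = 6.09e-12). Of all genes, 15.5% were called lower in the first of these steps, 18.8% higher in the second and 29.9% lower in the third. Along the AGN course it fell by 2.93 ± 0.40 from D0.75 to D1.5 (adjusted p = 2.77e-07), where 16% of genes were called lower. The later AGN steps did not pass the test, at -1.49 ± 0.78 from D1.5 to D2.5 (adjusted p = 0.125) and -1.70 ± 1.40 from D2.5 to D4 (adjusted p = 0.306). Without D2.5 AGN replicate 1 the first of these passed it (adjusted p = 0.0100).

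Against PM, Csn3 at D0.75 was at least 309-fold higher in CD1530 and at least 36.7-fold higher in AGN, so that it was above the start with either ligand. By D4 it was at least 229-fold above PM in CD1530, and in AGN its 1 count was within what a count of 0 allows, so no fold is given. The PM libraries are shared by all comparisons with PM. In order of level Csn3 was highest in CD1530 at D2.5 and then at D0.75, with libraries apart from each other and from the rest. The CD1530 groups of D4, D1.5 and D0.25 followed, and each overlapped its neighbour in that order.

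Arg1 was at 2.39, 2.93 and 2.21 CPM in PM. In CD1530 it was at 62.7, 53.7 and 53.1 CPM at D0.75, 33.05, 31.9 and 33.02 CPM at D1.5, 32.95, 32.4 and 30.7 CPM at D2.5, and 40.1, 47.3 and 44.7 CPM at D4. In AGN it was at 12.8, 10.6 and 12.3 CPM at D0.75, 6.73, 6.65 and 6.71 CPM at D1.5, 3.52, 4.28 and 4.02 CPM at D2.5, and 1.81, 1.63 and 2.08 CPM at D4. The AGN libraries sank at each time and ended below every PM library, whereas the CD1530 libraries levelled off and then recovered. Groups given different ligands did not overlap at any of these times, a separation with the higher level in CD1530 that 11.5%, 23.1%, 26% and 27.4% of all genes showed at D0.75, D1.5, D2.5 and D4.

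Arg1 was higher in CD1530 by 2.24 ± 0.08 on the log2 scale at D0.75 (SE, edgeR adjusted p = 5.51e-25) and by 2.29 ± 0.09 at D1.5 (adjusted p = 1.06e-23). It was higher by 3.05 ± 0.09 at D2.5 (adjusted p = 2.58e-27) and by 4.57 ± 0.11 at D4 (adjusted p = 6.96e-31). These correspond to 4.73, 4.88, 8.34 and 23.9 times the AGN level, and stand beside 7.94%, 15.2%, 20.4% and 22.7% of all genes called higher at these times. The gap therefore held at about the same size between the first pair of times and widened afterwards.

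In CD1530 Arg1 fell by 0.79 ± 0.07 from D0.75 to D1.5 (edgeR adjusted p = 6.46e-13), differed by -0.03 ± 0.07 from D1.5 to D2.5 (adjusted p = 0.802) and rose by 0.46 ± 0.07 from D2.5 to D4 (adjusted p = 3.71e-07), the last in a step where 27.4% of genes were called higher. In AGN it fell by 0.83 ± 0.10, 0.79 ± 0.12 and 1.07 ± 0.17 over the same 3 steps, with edgeR adjusted p-values of 1.01e-08, 6.40e-07 and 6.40e-07. Genes called lower made up 20.6% and 29.5% of all genes in the last 2 of these AGN steps. In the last step Arg1 therefore moved in opposite directions with the 2 ligands.

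Against PM, Arg1 at D0.75 was higher by 4.48 ± 0.10 in CD1530 (edgeR adjusted p = 2.13e-33) and by 2.24 ± 0.12 in AGN (adjusted p = 9.37e-20), where 38.3% and 39% of genes were called higher. Arg1 was thus above PM with either ligand at that time. At D4 it was 4.12 ± 0.10 above PM in CD1530 (adjusted p = 3.41e-32, 43.3% of genes called higher). In AGN at D4 it was lower than PM by 0.45 on the log2 scale (-0.45 ± 0.19, adjusted p = 0.0270, 40.4% of genes called lower). That last call was lost on leaving out PM replicate 2 (adjusted p = 0.136), D4 AGN replicate 1 (adjusted p = 0.0585) or D4 AGN replicate 2 (adjusted p = 0.107). PM were embryoid bodies and the rest monolayers, so time, ligand and culture form cannot be told apart in comparisons with PM.

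By level Arg1 was highest in CD1530 at D0.25, then D0.75, then D4, each apart from the next. CD1530 at D1.5, CD1530 at D2.5 and AGN at D0.25 followed with overlapping neighbours, and the remaining AGN groups came in the order of time with PM between D2.5 and D4. Per kilobase of merged exons, Arg1 reached 40.0 ± 1.57 CPM (SD, n = 3) in its highest group, Csn3 7.02 ± 0.596 and Prrt3 2.91 ± 0.212. Between these highest groups Arg1 was thus the most abundant of the 3 per length, and Prrt3 the least. The Arg1 group was CD1530 at D0.25, which chose the gene. In PM and in AGN from D1.5 on Csn3 was below Prrt3 per length, at 0.00477 and 0.272 CPM per kilobase in AGN at D4.

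Prrt3 was at 3.25, 3.78 and 3.29 CPM in PM. In CD1530 it was at 5.49, 7.14 and 7.38 CPM at D0.75, 8.66, 9.32 and 9.66 CPM at D1.5, 12.3, 13.5 and 14.2 CPM at D2.5, and 2.98, 4.62 and 2.92 CPM at D4. In AGN it was at 1.37, 1.41 and 1.40 CPM at D0.75, 2.26, 2.18 and 1.97 CPM at D1.5, 2.06, 2.50 and 2.07 CPM at D2.5, and 0.88, 1.26 and 1.604 CPM at D4. Every AGN library lay below every PM library, and the CD1530 libraries lay above PM from D0.75 to D2.5 and overlapped it at D4.

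Prrt3 was higher in CD1530 by 2.26 ± 0.18 on the log2 scale at D0.75 (SE, edgeR adjusted p = 4.95e-13), 2.11 ± 0.16 at D1.5 (adjusted p = 5.68e-14), 2.61 ± 0.15 at D2.5 (adjusted p = 4.07e-18) and 1.48 ± 0.22 at D4 (adjusted p = 4.41e-07). In ratios these were 4.81, 4.33, 6.13 and 2.79 times the AGN level. All 3 genes were therefore called higher in CD1530 at all 4 tested times, as were 7.94%, 15.2%, 20.4% and 22.7% of all genes at each in turn.

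In CD1530 Prrt3 rose by 0.47 ± 0.13 from D0.75 to D1.5 (edgeR adjusted p = 0.00485, 18.7% of genes called higher) and by 0.53 ± 0.12 to D2.5 (adjusted p = 6.60e-04), and fell by 1.93 ± 0.15 to D4 (adjusted p = 9.33e-15). The first of these steps was 0.35 (adjusted p = 0.0496) without D0.75 CD1530 replicate 1. In AGN it rose by 0.62 ± 0.22 from D0.75 to D1.5 (adjusted p = 0.0320, 14.2% of genes called higher), a call lost on leaving out any of the 6 libraries but D1.5 AGN replicate 3, with adjusted p-values of 0.0636 to 0.0861. It differed by 0.03 ± 0.20 to D2.5 (adjusted p = 0.922) and fell by 0.80 ± 0.23 to D4 (adjusted p = 0.00323). Both ligands thus ended with a fall in the last step.

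Against PM, Prrt3 at D0.75 was higher by 0.95 ± 0.15 in CD1530 (edgeR adjusted p = 5.94e-07), while in AGN it fell by 1.31 ± 0.20 on the log2 scale (adjusted p = 3.74e-07, 34.5% of genes called lower). Prrt3 differed in this from Csn3 and Arg1, which were above PM with either ligand at that time. At D4 it differed from PM by 0.02 ± 0.17 in CD1530 (adjusted p = 0.904), a value whose sign flips to -0.09 with library size in place of TMM, and in AGN it was lower by 1.45 (-1.45 ± 0.22, adjusted p = 1.39e-07). That scaling moves every log2 value by -0.11 for D4 against PM in CD1530 and by -0.15 in AGN.

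**Figure D2:**
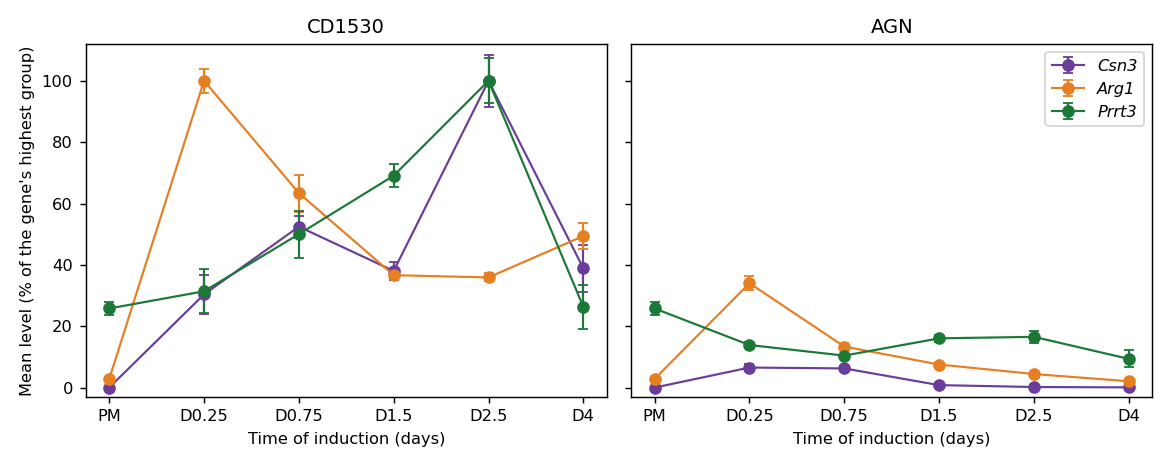
Group means as a percentage of each gene's own highest group (y axis, ± SD of 3 libraries as a percentage of that group) over PM and 5 times of induction, with CD1530 on the left and AGN on the right. Arg1 has its maximum at D0.25 and Csn3 and Prrt3 at D2.5, all in CD1530. In AGN no group mean is above the 34.0% that Arg1 has at D0.25.

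Scaled to its own highest group, Arg1 was at 36.6% and 35.9% of its maximum at D1.5 and D2.5 in CD1530 and at 49.4% at D4. Csn3 was at 52.5% at D0.75, 38.03% at D1.5 and 38.9% at D4. Prrt3 passed through 50.02% and 69.1% at D0.75 and D1.5 and was at 26.3% at D4, beside 25.8% in PM. The late rise of Arg1 thus coincided with falls of the other genes.

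**Figure D3:**
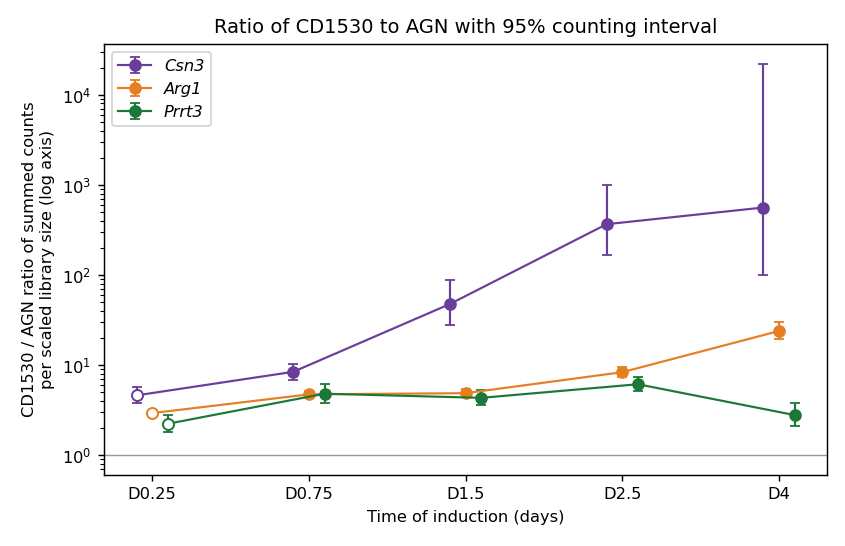
CD1530 to AGN ratio of summed counts per scaled library size (log axis) for Csn3, Arg1 and Prrt3 at 5 times of induction, with 95% counting intervals. Hollow points mark D0.25, which chose the genes. The ratio reaches 559 for Csn3 and 23.9 for Arg1 at D4, and that of Prrt3 is 6.13 at D2.5 and 2.79 at D4.

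Whether the ligand difference stayed constant after D0.75 was tested with an interaction over D0.75, D1.5, D2.5 and D4, for which 45.1% of all genes were called. All 3 genes were called, with edgeR adjusted p-values of 1.89e-11 for Csn3, 2.37e-15 for Arg1 and 0.0113 for Prrt3. The call for Prrt3 was lost without D4 AGN replicate 3 (adjusted p = 0.0827). From D0.75 to D1.5, a step with 5.6% of genes called for a growing difference, the Csn3 difference grew by 2.46 ± 0.43 (adjusted p = 1.44e-04), and those of Arg1 (0.04 ± 0.12, adjusted p = 0.873) and Prrt3 (-0.15 ± 0.26, adjusted p = 0.770) did not pass the test.

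From D1.5 to D2.5, where 4.92% of genes were called for a growing difference, the Arg1 difference grew by 0.76 ± 0.14 (edgeR adjusted p = 9.61e-05). The Csn3 difference grew by 2.88 ± 0.80 (adjusted p = 0.0125), a fitted value that rests on 6 counts of 1 library at D2.5. It was 6.65 without that library, D2.5 AGN replicate 1, and the call was lost without D1.5 AGN replicate 3 (2.67, adjusted p = 0.0770). Prrt3 changed by 0.50 ± 0.24 (adjusted p = 0.183). From D2.5 to D4 the Arg1 difference grew by 1.53 ± 0.18 (adjusted p = 1.09e-08, 12.7% of genes called for a growing difference) and the Prrt3 difference shrank, at -1.13 ± 0.29 (adjusted p = 0.00285, 14.1% called for a shrinking one). The Csn3 value of 0.33 ± 0.99 (adjusted p = 0.848) had too few AGN counts behind it to give a direction.

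A list of 11 retinoid response genes was read beside the members. It includes the receptor gene Rarb, the retinoic acid-degrading enzymes Cyp26a1, Cyp26b1 and Cyp26c1, and the retinaldehyde reductase Dhrs3. All 11 were called higher in CD1530 at each of D0.75, D1.5, D2.5 and D4, with medians of 1.62, 2.81, 4.42 and 4.94 on the log2 scale, against medians of all genes between -0.02 and 0.01. Genes called lower, which the lists below also count, were 10%, 11.8%, 19.6% and 24% of all genes at these times. Csn3 lay above the list's median at all 4 times, and Arg1 and Prrt3 above it at D0.75 and below it from D1.5 on. Rarb was higher in CD1530 by 1.77 ± 0.15 at D0.75 and 5.63 ± 0.14 at D4, where it was at 56.2 ± 3.57 CPM in CD1530 and 1.12 ± 0.488 CPM in AGN.

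Of 16 casein and milk genes, 6 had a row in the table, and Csn1s1, Csn1s2a, Csn1s2b, Csn2, Wap and Lalba were not analysed here. Besides Csn3, 1 of the other 5 was called higher in CD1530 at D0.75, 1 at D1.5, 3 at D2.5 and 2 at D4, and 1 was called lower at D4. Their median was between -0.05 and 0.24 on the log2 scale. Btn1a1, which encodes butyrophilin of the milk fat globule, was at 1.58 ± 0.0820 CPM in CD1530 and 0.326 ± 0.0315 CPM in AGN at D0.75, and at 3.83 ± 0.578 and 0.0805 ± 0.0332 CPM at D4. It was higher in CD1530 by 2.25 ± 0.36 and 5.47 ± 0.44 on the log2 scale at these times (edgeR adjusted p = 4.72e-06 and 6.02e-14). Prlr, the gene called lower at D4, went the other way, at -1.65 ± 0.28 (edgeR adjusted p = 4.69e-06). Its levels there were 0.556 ± 0.0615 CPM in CD1530 and 1.77 ± 0.544 CPM in AGN.

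Arg1 was set beside the genes around it in arginine use, of which 21 of 25 were in the table. Of the 20 other than Arg1, the test called 3 higher in CD1530 and 2 lower at D0.75, 4 and 5 at D1.5, 6 and 6 at D2.5, and 6 and 6 at D4. Their medians were 0.02, 0.01, 0.05 and 0.02 on the log2 scale, so that the list as a whole was divided in direction. Arg2, the mitochondrial arginase, was at most 2.22 CPM in any ligand group mean and was higher in CD1530 by 3.32 ± 0.37 at D2.5 (edgeR adjusted p = 7.11e-10) and 2.50 ± 0.36 at D4 (adjusted p = 1.85e-07). Nos2, the inducible nitric oxide synthase that competes with arginase for arginine, was higher by 0.74 ± 0.13, 1.08 ± 0.15, 1.04 ± 0.15 and 1.33 ± 0.19 at the 4 tested times.

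Odc1 and Oat, enzymes that use the ornithine made by arginase, were lower in CD1530 at D4. Odc1, the first enzyme of polyamine synthesis, was at -0.25 ± 0.03 at D1.5 (edgeR adjusted p = 4.43e-09) and -0.31 ± 0.03 at D4 (adjusted p = 1.33e-11). Oat, which turns ornithine toward proline and glutamate, was at -0.42 ± 0.04 at D4 (adjusted p = 4.65e-12). The urea cycle enzyme Asl did not pass the test at any of these times, with values between -0.10 and 0.06, and Ass1 passed it at D2.5 with -0.15 ± 0.06 (adjusted p = 0.0275). The cationic amino acid transporter Slc7a2 was higher in CD1530 by 0.73 ± 0.13 at D2.5 and 0.89 ± 0.12 at D4 (adjusted p = 1.85e-05 and 5.08e-08).

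**Figure D4:**
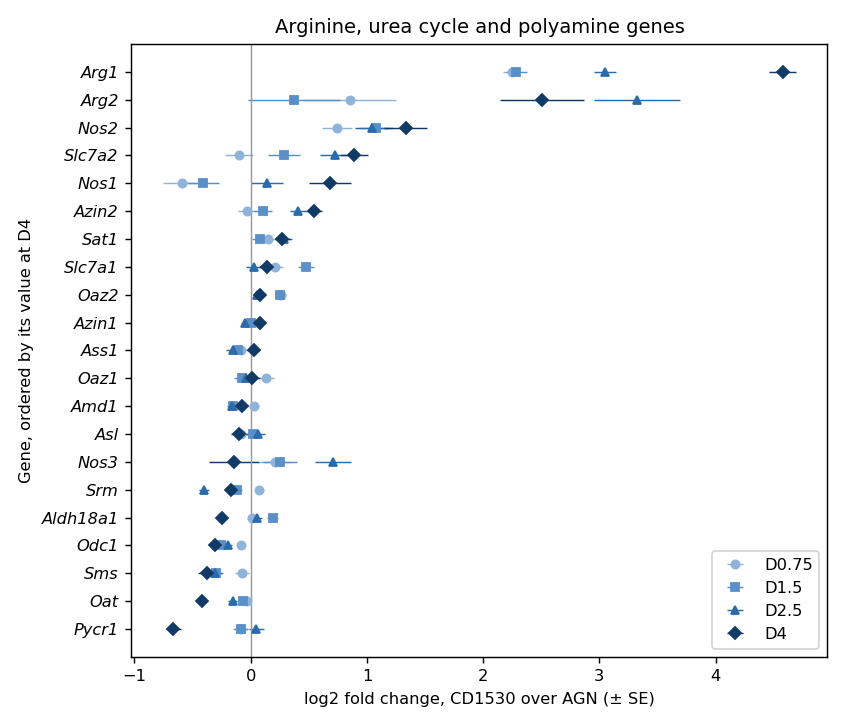
log2 fold change of CD1530 over AGN (x axis, ± SE derived from the edgeR F statistic) at D0.75, D1.5, D2.5 and D4. Rows are the 21 arginine, urea cycle and polyamine genes in the table, ordered by their value at D4. Arg1 lies farthest right at D4 with 4.57, Arg2 follows with 2.50, and Pycr1 lies farthest left with -0.67.

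Of the other proline-rich transmembrane genes, Prrt1 and Prrt4 had rows. Prrt4 was higher in CD1530 by 1.57 ± 0.29 at D2.5 (edgeR adjusted p = 2.50e-05) and 1.37 ± 0.33 at D4 (adjusted p = 6.15e-04), at levels of at most 1.95 CPM. Prrt1 was lower by 1.58 at D4 (-1.58 ± 0.40, adjusted p = 0.00106). Neither passed the test at D0.75 or D1.5.

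Markers of other cell types were read beside the members, because in bulk RNA fewer cells of a type and less RNA per cell cannot be told apart. Of 12 macrophage genes 6 had rows, of which 1 was called higher in CD1530 at each tested time and 1 lower at D2.5. Their summed level was 81.8 to 92.2 CPM in CD1530 and 73.4 to 83.4 CPM in AGN at D0.75, and 45.03 to 53.2 and 46.7 to 52.3 CPM at D4, overlapping between ligands. Most of these sums was Lyz2 and Cd68, at 30.1 and 13.04 CPM in CD1530 and 29.3 and 13.05 CPM in AGN at D4. The listed genes Ptprc, Adgre1 and Csf1r had ligand group means between 1.18 and 4.91 CPM. The gene called higher was Lyz2 at D0.75 (0.26 ± 0.09, edgeR adjusted p = 0.0348) and from D1.5 on Mrc1, the mannose receptor gene that like Arg1 marks alternatively activated macrophages. Mrc1 was higher in CD1530 by 0.63 ± 0.18 at D1.5, 1.04 ± 0.18 at D2.5 and 0.64 ± 0.25 at D4 (adjusted p = 0.00616, 6.69e-06 and 0.0356), at levels of at most 4.93 CPM at these times. The part of macrophage genes in the Arg1 result was not tested.

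The 7 liver and endoderm genes measured, of 8, summed to 3.88 to 4.12 CPM in PM. At D0.25 they summed to 178 to 182 CPM in CD1530 and 194 to 198 CPM in AGN, with Foxa2 and Sox17 at their highest in AGN. Of the 7, 1 was called higher and 4 lower in CD1530 at D0.75, 1 and 2 at D1.5, and 2 and 0 at D2.5. At D4 the list was at 87.7 to 91.2 CPM in CD1530 and 31.7 to 34.1 CPM in AGN, with 3 genes called higher and 1 lower. Most of the D4 sum in CD1530 was Foxa1, an endoderm transcription factor gene, at 79.7 ± 1.34 CPM against 16.1 ± 1.63 CPM in AGN, a difference of 2.31 ± 0.08. The gene called lower at D4 was its relative Foxa2, at 4.28 ± 0.389 CPM against 14.1 ± 1.22 CPM in AGN, a difference of -1.72 ± 0.12. Apoa1, which encodes the main protein of high-density lipoprotein made in liver, was the gene called higher at D0.75 (1.23 ± 0.13, 18.1 and 7.70 CPM) and D1.5 (2.49 ± 0.20, 6.59 and 1.16 CPM), in the direction of Arg1. The 4 called lower at D0.75, against that direction, were Hnf4a (-0.97 ± 0.18), Foxa2 (-0.68 ± 0.08), Sox17 (-0.66 ± 0.08) and Foxa1 (-0.35 ± 0.07). The hepatocyte regulator Hnf4a was at 0.195 and 0.0813 CPM at D4. The part of this list in the Arg1 result was not tested.

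Neural genes moved with the ligand from D1.5 on. Of the 7 measured, of 8, 0 were called at D0.75, 4 higher in CD1530 at D1.5, 5 at D2.5 and 7 at D4, where they summed to 145 to 158 CPM in CD1530 and 66.3 to 67.8 CPM in AGN. At D0.75 the neural sums were 311 to 330 CPM in CD1530 and 304 to 336 CPM in AGN. Most of these sums was Sox2, at 274 CPM with either ligand, so they say little about the other neural genes. The 6 epithelial genes measured, of 8, were all called lower in CD1530 at D0.75, D1.5 and D2.5, and 2 higher and 4 lower at D4. The part of the neural and epithelial lists in the members' differences was not tested.

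The labels were checked against markers. Tbx6 and Msgn1, defining genes of paraxial mesoderm, had their highest group means in PM, at 9.56 and 3.38 CPM, beside Sox2 at 536 CPM and the epithelial gene Cdh1 at 431 CPM. Of the other paraxial mesoderm genes listed, Uncx was also highest in PM, at 5.54 CPM. Pax3, Tcf15 and Meox1 were instead highest in CD1530, at 7.64 CPM at D0.25, 51.8 CPM at D1.5 and 131 CPM at D2.5. Meox1 was lowest in PM, at 5.91 CPM, so the list as a whole did not single out PM. Scx, the defining tendon gene, went from 6.41 CPM in PM to 1701 CPM in AGN at D2.5. Of the 8 tendon and cartilage genes, 3 were called lower in CD1530 at D0.75 with 0 higher, 2 and 2 at D1.5, 6 lower and 1 higher at D2.5, and 6 lower with 0 higher at D4. Of the 6 paraxial mesoderm genes, 3 were called higher and 1 lower at D0.75 and D1.5, 4 higher with 0 lower at D2.5, and 3 higher with 0 lower at D4. The tendon and cartilage genes called higher were Scx and Mkx at D1.5 and Mkx at D2.5. The members were chosen for a higher level in CD1530 at D0.25, so their direction is not set against these lists.

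At each of the 4 tested times the difference of each member was larger than those of its 10 neighbours on the chromosome. The members were chosen for their difference at D0.25 and the neighbours were not, so this order largely restates the choice. The 10 measured genes around Csn3 start 498 to 1404 kb away from it, and those around Prrt3 within 145 kb. Around Csn3, none (0) of the 10 was called higher at D0.75 and 1 lower. At D1.5 and D2.5 the test put 1 higher and 2 lower, and at D4 4 higher and 1 lower. The higher one at D2.5 was Tmprss11f, a serine protease gene whose start lies 1404 kb away, and at D4 it was higher by 2.32 ± 0.54 (edgeR adjusted p = 4.25e-04) at 0.926 and 0.184 CPM. Mob1b, a Hippo pathway gene, was higher by 0.60 ± 0.06 at D4 (adjusted p = 5.58e-11). Around Arg1 4 stood higher and 1 stood lower by the test at D0.75, 3 and 1 at D1.5 and at D2.5, and 3 and 4 at D4, with medians between 0.05 and 0.13 on the log2 scale. Med23, the next gene to the left of Arg1, was at -0.02 ± 0.06 at D0.75 and 0.02 ± 0.06 at D2.5 (edgeR adjusted p = 0.843 and 0.784), beside 2.24 and 3.05 for Arg1.

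Around Prrt3 3 of the 10 were called higher at D0.75, 5 at D1.5, 6 at D2.5 and 2 at D4, beside 7.94%, 15.2%, 20.4% and 22.7% of all genes, with 0 lower at the first 3 times and 1 at D4. The farthest on the left, Ttll3, a tubulin tyrosine ligase-like gene 104 kb away, had the greatest differences of the 10 at D0.75, D1.5 and D2.5, at 1.00 ± 0.20, 1.67 ± 0.20 and 1.63 ± 0.22 (edgeR adjusted p = 2.33e-04, 1.41e-08 and 1.00e-07). At D4 it did not pass the test (0.03 ± 0.24, adjusted p = 0.926), at the time when Prrt3 itself had fallen. Creld1, which adjoins Prrt3, was higher by 0.24 ± 0.06 at D0.75 and 0.14 ± 0.06 at D2.5.

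**Figure D5:**
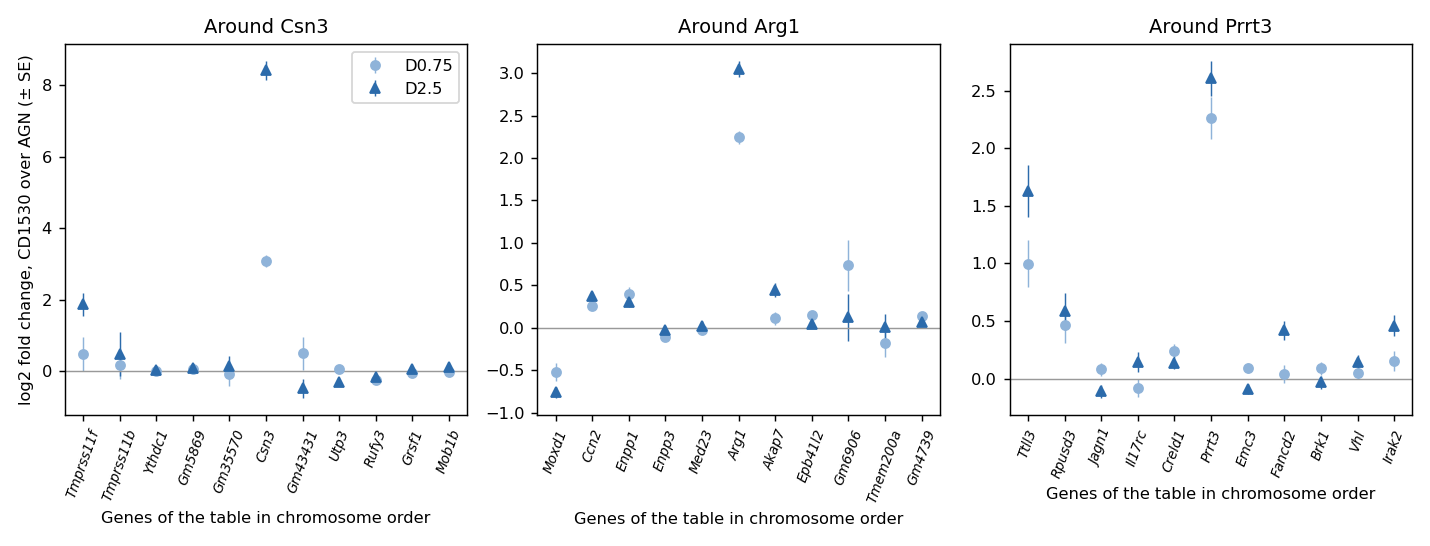
log2 fold change of CD1530 over AGN (y axis, ± SE derived from the edgeR F statistic) at D0.75 and D2.5. Shown are Csn3, Arg1 and Prrt3 and the 5 genes of the table on each side of each. Genes stand in chromosome order, not to scale by distance. Each member stands above its 10 neighbours at both times, which largely restates how the members were chosen. Ttll3 is the neighbour of Prrt3 with the highest value, 1.63 at D2.5.

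Patterns were compared by Pearson correlation of group means of log2(CPM + 1) over the 9 groups that the choice of genes did not use, among 15484 genes with a mean of at least 1 CPM. These correlations share the same libraries and describe them only. Most like Csn3 were Ccdc88b (r = 0.979), Cilp2 (0.968), Olr1 (0.956), Ttc39c (0.953) and Meis2 (0.953). Most like Arg1 were Git1 (0.970), Mnx1 (0.965), Rps6ka3 (0.961), Spp1 (0.957) and Ibsp (0.954). Most like Prrt3 were Sult4a1 (0.975), Mcl1 (0.961), Shisa8 (0.953), Mafa (0.948) and Hal (0.947). With Spearman's measure 0, 2 and 4 of these 5 stayed in the nearest 5 of Csn3, Arg1 and Prrt3. Among the members r was 0.943 for Csn3 and Arg1, 0.830 for Csn3 and Prrt3 and 0.698 for Arg1 and Prrt3.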

How the data were processed

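RNA-seq of 33 mouse cultures was analysed, in 11 groups of 3 replicates taken from the sample labels. The authors aligned reads with STAR to GRCm38 and made gene counts with featureCounts, and raw gene counts were deposited, which are used here unchanged. The strand setting and the annotation release are not given in the sources used here. Library totals were 17116084 to 22775275 counts, and 38120841 for D2.5 AGN replicate 1.

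Counts were fitted in R 4.3.3 with edgeR 4.0.16 (robust quasi-likelihood F test, TMM, a mean for each of 11 groups, no covariates). The edgeR filter removed 0 of 17120 genes. Benjamini-Hochberg adjustment ran over all genes of a contrast, for 18 contrasts, and genes were called at an adjusted p-value under 0.05. Levels are CPM, mean ± SD. The SE of a log2 difference is its absolute value divided by the square root of the F statistic. It is approximate where counts are few, and SEs of single differences need not add up to that of their change. Folds against a group at 0 use a floor of 3 counts over the group, and ratios have 95% exact binomial intervals. The fit was tested on simulated data. DESeq2 1.42.0 was an alternative. Members, lists and tests were chosen with earlier results of these data known. Other genes named are list members, the 5 neighbours on each side and the 5 genes of most similar pattern for each member. Same-numbered replicates were treated as unpaired. A gene of the retinoid response list is not reported here.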

Additional observations from a re-analysis of the deposited data

Results flagged for a closer look

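The difference between CD1530 and AGN changed with time for all 3 genes. The interaction over D0.75 to D4 had edgeR adjusted p-values of 1.89e-11 for Csn3, 2.37e-15 for Arg1 and 0.0113 for Prrt3. It was called for 45.1% of all genes, and the Prrt3 call was lost without D4 AGN replicate 3 (edgeR adjusted p = 0.0827). In single steps the Csn3 difference grew by 2.46 from D0.75 to D1.5 and by 2.88 from D1.5 to D2.5 on the log2 scale. The second rests on 6 AGN counts of 1 library, and its call was lost without D1.5 AGN replicate 3 (edgeR adjusted p = 0.0770). The Arg1 difference grew by 0.76 from D1.5 to D2.5 and by 1.53 from D2.5 to D4. The Prrt3 difference changed by -1.13 from D2.5 to D4. Each was picked out by the test of the change itself.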

How the results depend on the processing

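The 12 ligand comparisons of Csn3, Arg1 and Prrt3 kept their direction and their call in all 159 values from other normalizations, filters, DESeq2, a fit of only the groups compared, the replicate block and leaving out single libraries. Over 53 tests of the members, 784 of 810 such values kept both. With only the groups compared in the fit, 1236 genes were called between ligands at D0.75 in place of 3076, 649 in place of 1541 for the change from D0.75 to D1.5, and 2792 in place of 5854 for CD1530 from D0.75 to D1.5. All 3 counts use the group of D0.75 CD1530 replicate 1. With that library also left out, a fit chosen after seeing the data, they were 3363, 1506 and 5286. With library size in place of TMM, Arg1 at D0.25 in CD1530 was at 93.2 CPM in place of 89.2, Prrt3 in AGN from D1.5 to D2.5 was at -0.057, and Prrt3 in CD1530 at D4 against PM was at -0.089, or -0.026 with only the groups compared.

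Deviations of same-numbered replicates had correlations from -0.43 to 0.40 between groups, without a common sign. In some pairs of groups they were positive for each number. Examples are CD1530 at D0.25 and D0.75 (0.32, 0.14 and 0.26) and PM and AGN at D2.5 (0.09, 0.23 and 0.08). The numbers were not taken as pairs. The replicate block gave 3009 calls at D0.75 and 7914 at D4 between ligands, and changed no call of a member.

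Leaving out 1 library at a time gave adjusted p-values from 0.00146 to 0.0827 for the Prrt3 interaction over D0.75 to D4. On the log2 scale the change of the Arg1 difference from D0.75 to D1.5 ran from -0.017 to 0.12, of the Csn3 difference from D1.5 to D2.5 from 2.47 to 6.65, and of the Csn3 difference from D2.5 to D4 from -3.44 to 2.45. Steps in AGN ran from 0.58 to 0.67 for Prrt3 from D0.75 to D1.5, from -5.26 to -1.08 for Csn3 and -0.052 to 0.096 for Prrt3 from D1.5 to D2.5, and from -3.81 to 2.08 for Csn3 from D2.5 to D4. Arg1 in CD1530 from D1.5 to D2.5 ran from -0.049 to 0.00060. At D4 against PM, Prrt3 in CD1530 ran from -0.22 to 0.13 and Arg1 in AGN from -0.55 to -0.34. The wide Csn3 ranges come with 0, 1 or 6 counts in the AGN groups of D2.5 and D4.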
